A study of Mus musculus with 12 samples.

Results

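The genes examined encode the pore-forming and accessory subunits of potassium channels. They were taken by symbol: every probe set with exactly 1 gene symbol made of Kcn, a letter and a number, and for each gene the probe set of highest mean. This gave 77 genes, covered by 81 probe sets, of the 22180 genes named on the array. Of these, 76 had a mean log2 value of at least 5.72, the 30th percentile of all probe sets, and were tested among 17467 genes. Kcnu1, the pore gene of a sperm potassium channel, lay below that limit (mean 4.83), and the genes just above it were Kcnv2 and Kcnj1 (both 5.78). A gene encodes protein in 75 of the 77 cases. The other 2 are noncoding RNAs whose symbols follow the same pattern, Kcnq1ot1 and Kcnd3os, which overlap Kcnq1 and Kcnd3.

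RNA came from primary neuronal cultures of embryonic brain, taken from ICR (CD-1) mice, an outbred stock, and was hybridised to 12 Affymetrix whole-transcript arrays, 2 per group. Cultures received amitriptyline (5 µM), imipramine (5 µM), citalopram (10 µM), duloxetine (0.1 µM) or mirtazapine (50 µM) at day 3 in vitro, and 48 h afterwards (day 5) RNA was collected. The sources used here do not give what control cultures received. The labels name no allele or transgene in any group. Nothing states whether the 2 arrays of a group came from separate cultures, so p-values measure the spread between arrays, which may be technical. Amitriptyline and imipramine are tricyclic antidepressants, citalopram blocks serotonin reuptake, duloxetine blocks reuptake of serotonin and noradrenaline, and mirtazapine is a tetracyclic receptor antagonist.

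Potassium channels let potassium ions leave the cell, which sets the resting potential, ends the action potential and paces repeated firing. Voltage-gated channels open on depolarisation, calcium-activated channels follow calcium entry, inward rectifiers hold the potential near rest, and channels with a pair of pore domains per subunit carry a steady leak. Silent subunits and small single-span or cytosolic partners change how the pores are trafficked and gated. In brain cultures neurons express many of these genes at once, and astrocytes use inward rectifiers and leak channels to take up potassium.

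The genes whose results recur below were Kcnk1, a leak channel gene, Kcne1l, a single-span beta subunit gene, and Kcnn3, a calcium-activated channel gene. Their upstream sequence is shown as the DNA next to the genes that were lower on most drug arrays. Each line gives the 250 bases before the annotated start, 5′ to 3′ on the gene's strand, from RefSeq on GRCm38.p6: chr8:125994852-125995101 on the plus strand for Kcnk1, chrX:142306199-142306448 on the minus strand for Kcne1l, and chr3:89519914-89520163 on the plus strand for Kcnn3. Capitals mark a GC box (GGGCGG, either strand) or the TGACG core of the cyclic AMP response element (either strand).
Kcnk1: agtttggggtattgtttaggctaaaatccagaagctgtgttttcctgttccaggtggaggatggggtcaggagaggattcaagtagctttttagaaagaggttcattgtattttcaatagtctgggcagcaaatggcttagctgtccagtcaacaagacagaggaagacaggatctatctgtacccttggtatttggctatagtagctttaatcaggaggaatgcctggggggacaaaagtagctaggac
Kcne1l: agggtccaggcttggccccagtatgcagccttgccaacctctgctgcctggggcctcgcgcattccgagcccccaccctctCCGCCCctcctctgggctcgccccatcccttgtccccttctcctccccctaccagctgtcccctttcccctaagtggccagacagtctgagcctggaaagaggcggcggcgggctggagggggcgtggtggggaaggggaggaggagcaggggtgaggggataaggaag
Kcnn3: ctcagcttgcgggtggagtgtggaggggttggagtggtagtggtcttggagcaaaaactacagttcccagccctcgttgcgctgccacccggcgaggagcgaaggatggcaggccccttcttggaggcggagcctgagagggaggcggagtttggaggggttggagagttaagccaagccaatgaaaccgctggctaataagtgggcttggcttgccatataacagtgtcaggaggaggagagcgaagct
These windows hold 1 GC box, that of Kcne1l, and 0 TGACG cores. Their GC content is 44.4% for Kcnk1, 68% for Kcne1l and 58.8% for Kcnn3, against a median of 59.6% over the 58 potassium channel genes with an entry and 52% over 27025 genes. A GC box occurs in 50% of the windows of those 58 genes and in 33% of all 27025, while TATAAA (either strand) occurs in 1.72% and 13%. The TGACG core occurs in 22.4% against 17.8%, the whole element TGACGTCA in 0 of 58 against 1.6%, and the E-box CACGTG in 6.9% against 6.04%. The stress elements searched were TGACNNNGC, with 17.2% against 10.1%, and TGATGNAA, with 0 of 58 against 3.53%, both on either strand. These are matches of letters, and TGACG overlaps TGACGTCA.

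The arrays were alike except for duloxetine replicate 2 and mirtazapine replicate 2. These lay at 32.6 and 36.4 on the first principal component of all tested genes, which held 52.5% of the variance, and the highest of the other 10 arrays lay at 3.94. Dim probe sets read higher on both. Of the 76 potassium channel genes, 20 had a mean below the median of all probe sets (6.65). On duloxetine replicate 2 all 20 of these lay above the control mean (median difference 0.44), and on mirtazapine replicate 2 the count was 19 of 20 (median 0.48), where all 4012 dim genes had medians of 0.30 and 0.29. Every dim member had its highest value on 1 of these arrays, 14 on mirtazapine replicate 2 and 6 on duloxetine replicate 2. Differences of dim genes under these drugs are therefore given with their array values. Neuron markers passed the level limit for testing (12 of 12, mean log2 7.64 to 12.92), and so did 11 of 12 astrocyte markers (5.89 to 11.25). That limit was also passed by 11 of 12 microglia, 10 of 12 oligodendrocyte lineage and 7 of 10 endothelial markers. Passing it therefore cannot show which cells the cultures held.

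**Figure D1:**
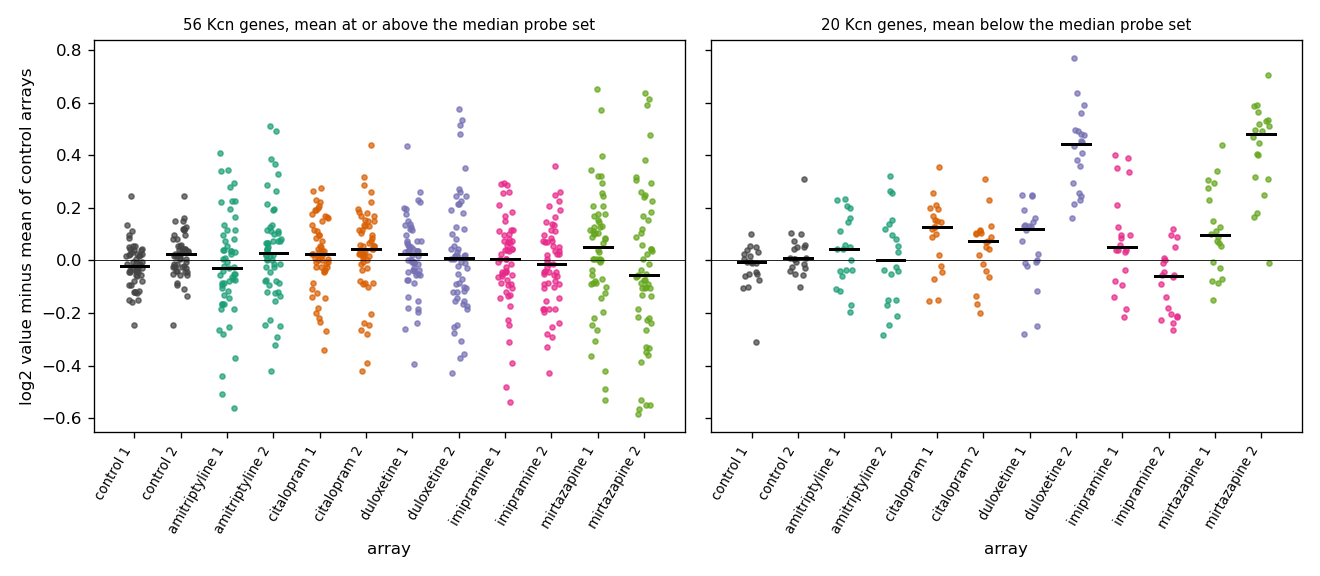
Each point is 1 gene on 1 array, as its log2 value minus the mean of the 2 control arrays; the left panel holds the 56 brighter genes, the right panel the 20 genes below the median probe set, and black lines are medians. In the right panel the points of duloxetine replicate 2 (median 0.44) and mirtazapine replicate 2 (0.48) stand above those of the other 10 arrays.

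The first question was which potassium channel genes responded to each drug. Kcnk1 fell under mirtazapine, and was the only one of the 76 called at an adjusted p under 0.05 in limma in any drug-control comparison. Genome-wide 304 of 17467 genes, 1.74%, were called for mirtazapine, so 1 of 76 (1.32%) is near the background. For amitriptyline, citalopram and duloxetine limma called 0 of 76, and 0% of all genes. For imipramine it called 0 of 76 and 0.0286% of all genes. At an unadjusted p under 0.05 there were 7 potassium channel genes (9.21%) for amitriptyline where all genes gave 6.14%, 6 (7.89%) for citalopram against 4.44%, 5 (6.58%) for duloxetine against 10%, 5 (6.58%) for imipramine against 4.56%, and 19 (25%) for mirtazapine against 22.4%. Of these 19, 11 were higher (14.5% of the 76, all genes 8.15%) and 8 were lower (10.5%, all genes 14.3%). By these totals the family stood close to the rest of the array, but under mirtazapine more of its genes were higher and fewer lower. The higher ones included dim genes, namely 2 Kcnk genes, 1 Kcna, 1 Kcng and 1 Kcnj gene. All 20 dim genes had a positive difference under mirtazapine. Counts by arrays alone, given below, lay further from those of all genes. Under citalopram 35.5% of the 76 had both arrays above both controls, against 17% of all genes.

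Sizes were small throughout. Differences of the 76 genes from control ran from −0.49 to 0.46 under amitriptyline, from −0.37 to 0.32 under citalopram, from −0.28 to 0.51 under duloxetine, from −0.46 to 0.31 under imipramine and from −0.53 to 0.51 under mirtazapine, on the log2 scale, where 0.5 is a fold of 1.41. The family median was −0.01 under amitriptyline (all genes −0.02), 0.04 under citalopram (−0.01), 0.07 under duloxetine (−0.02), 0.01 under imipramine (−0.01) and 0.08 under mirtazapine (−0.04). Among the 56 brighter genes the medians under duloxetine and mirtazapine were 0.03 and 0.01, and among the 20 dim ones 0.26 and 0.27. The family medians under these drugs were thus larger among the dim genes. All brighter genes had medians of −0.045 and −0.09, and all dim genes 0.15 and 0.185. Both parts of the family thus had medians above those of all genes on the same side of the median probe set. Levels were not matched within either part, and the difference was not tested. The median 95% interval reached 0.27 on either side, and for 76 of 76 genes under amitriptyline, citalopram, duloxetine and imipramine, and 75 of 76 under mirtazapine, the interval lay within 1 log2 unit of 0. The exception was Kcna5 (0.51, interval 0.003 to 1.01).

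**Figure D2:**
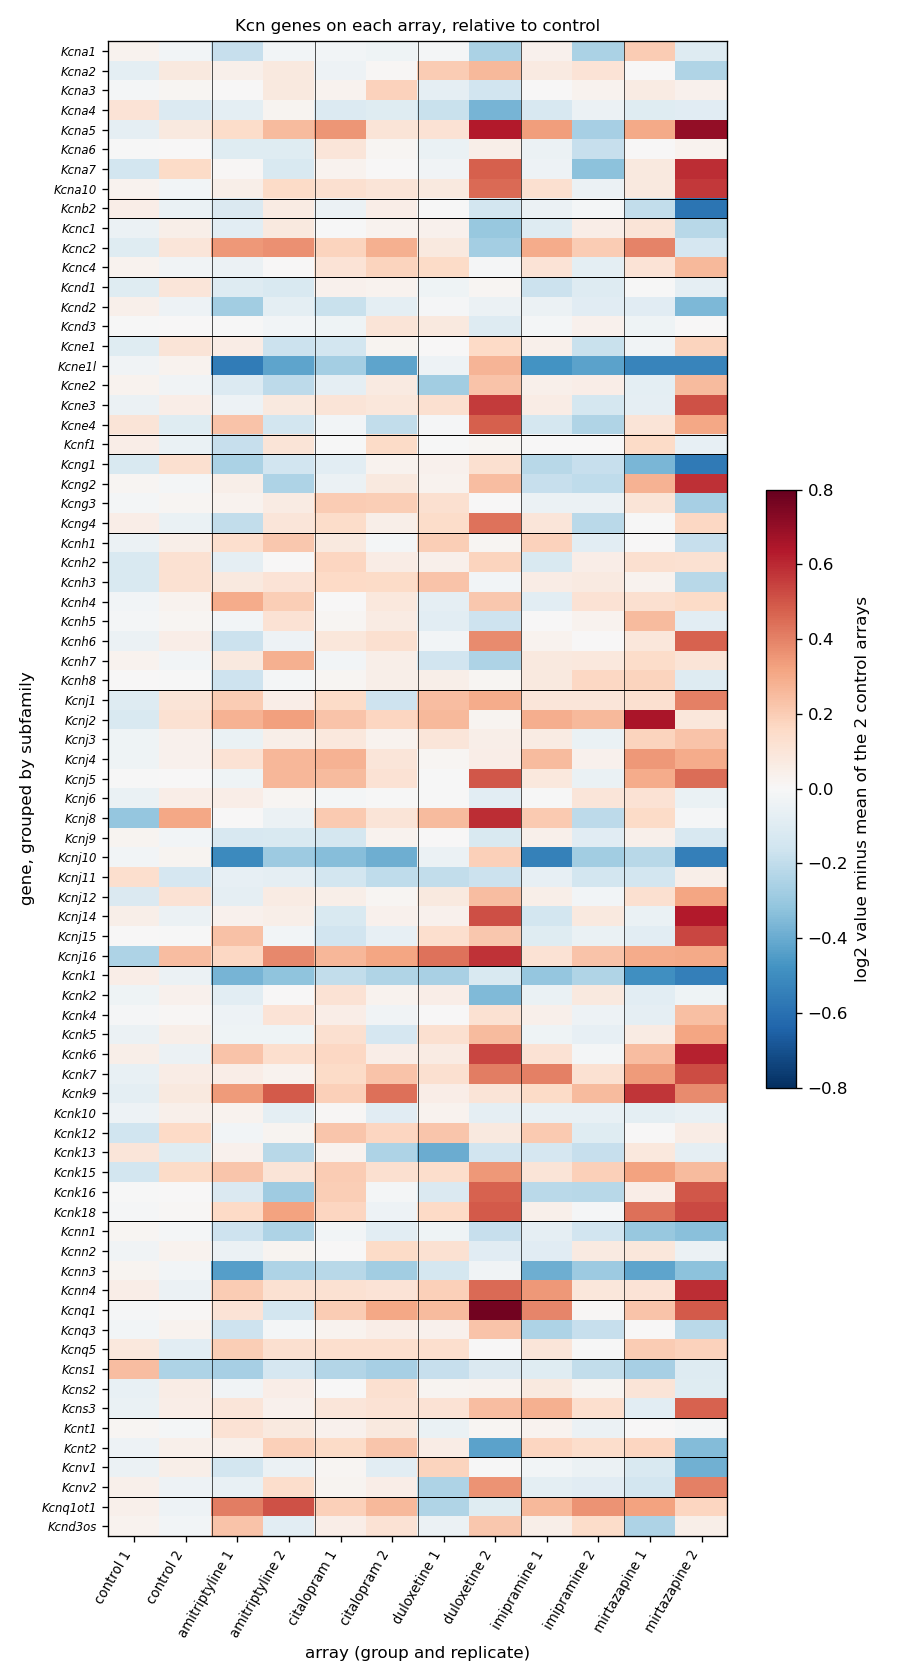
Colour gives the log2 value minus the mean of the 2 control arrays for 76 potassium channel genes (rows, grouped by subfamily) on the 12 arrays (columns, 2 per group); blue is lower and red higher, with the scale ending at 0.8. Blue rows across most drug columns include Kcnk1, Kcnn3, Kcne1l and Kcnj10, and the columns of duloxetine replicate 2 and mirtazapine replicate 2 hold the most red.

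The leak channel genes held the one called gene. Kcnk1 encodes a weakly rectifying leak channel found in neurons and astrocytes. Its control arrays read 9.61 and 9.51, and its mirtazapine arrays 9.07 and 9.01. Amitriptyline gave 9.19 and 9.24, imipramine 9.25 and 9.32, citalopram 9.36 and 9.32, and duloxetine 9.30 and 9.44. All 10 drug arrays thus lay below both control arrays, and mirtazapine had the lowest pair. The fall under mirtazapine was 0.52 log2 units (difference −0.52 ± 0.09 SE, interval −0.72 to −0.32), a level 1.43-fold lower than control (limma adjusted p = 0.0228). Under the other drugs the differences did not pass: −0.35 for amitriptyline (adjusted p = 0.233), −0.28 for imipramine (adjusted p = 0.604), −0.22 for citalopram (adjusted p = 1) and −0.19 for duloxetine (adjusted p = 0.499). For the mean of the 5 drugs limma called 0 of the 76 and 0.0515% of all genes, and 10 (13.2%) had an unadjusted p under 0.05 against 8.93% of all genes. In that comparison Kcnk1 was at −0.31 (interval −0.46 to −0.16, limma adjusted p = 0.114).

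The Kcnk1 call rests on a narrow margin. Without control replicate 1 the difference was −0.47 (limma adjusted p = 0.182), without control replicate 2 −0.57 (adjusted p = 0.0659) and without mirtazapine replicate 2 −0.49 (adjusted p = 0.137). It also ended without any 1 amitriptyline array (limma adjusted p = 0.0508) or citalopram array (adjusted p = 0.059). Leaving out both arrays that stand apart keeps only replicate 1 for mirtazapine, and the difference there was −0.49.

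The acid-sensitive leak channel gene Kcnk9 pointed the other way. Control arrays read 9.09 and 9.25, mirtazapine 9.74 and 9.55, amitriptyline 9.51 and 9.66, citalopram 9.36 and 9.61, imipramine 9.32 and 9.42, and duloxetine 9.22 and 9.27. All 8 arrays of the drugs other than duloxetine lay above all 4 control and duloxetine arrays. The differences of 0.48 for mirtazapine (limma adjusted p = 0.0768), 0.42 for amitriptyline (adjusted p = 0.309) and 0.32 for citalopram (adjusted p = 0.917) did not pass. Quantile normalization of the deposited values once more brought the mirtazapine difference to 0.59 (adjusted p = 0.0288).

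Kcnk18, a calcineurin-regulated leak channel gene and a dim probe set, read 6.39 and 6.41 in control, 6.84 and 6.93 under mirtazapine and 6.56 and 6.89 under duloxetine. Its differences of 0.49 (limma adjusted p = 0.0834) and 0.33 (adjusted p = 0.492) did not pass. Kcnk7, which encodes a family member without known channel activity, was also dim, at 6.07 and 6.19 in control and 6.47 and 6.65 under mirtazapine (0.43, limma adjusted p = 0.115). Under imipramine it read 6.53 and 6.25 (0.26, adjusted p = 1). Kcnk6, related to Kcnk1, had 7.03 and 6.94 in control, and 7.23 and 7.60 under mirtazapine (0.43), with the higher value on the array that stands apart. The mechanosensitive and lipid-sensitive channel genes varied little: Kcnk10 stayed between 10.57 and 10.70 on all 12 arrays, and Kcnk4 between 8.18 and 8.49. Kcnk2, of the same kind, was between 9.33 and 9.53 on 11 arrays and at 9.06 on duloxetine replicate 2. Of the 13 leak channel genes 1 was called under mirtazapine and 6 had an unadjusted p under 0.05, where all genes gave 1.74% and 22.4%, and under the other drugs 0 were called. Their median difference under mirtazapine was 0.19 (all genes −0.04), with 0.35 for the 4 dim genes and 0.03 for the other 9.

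**Figure D3:**
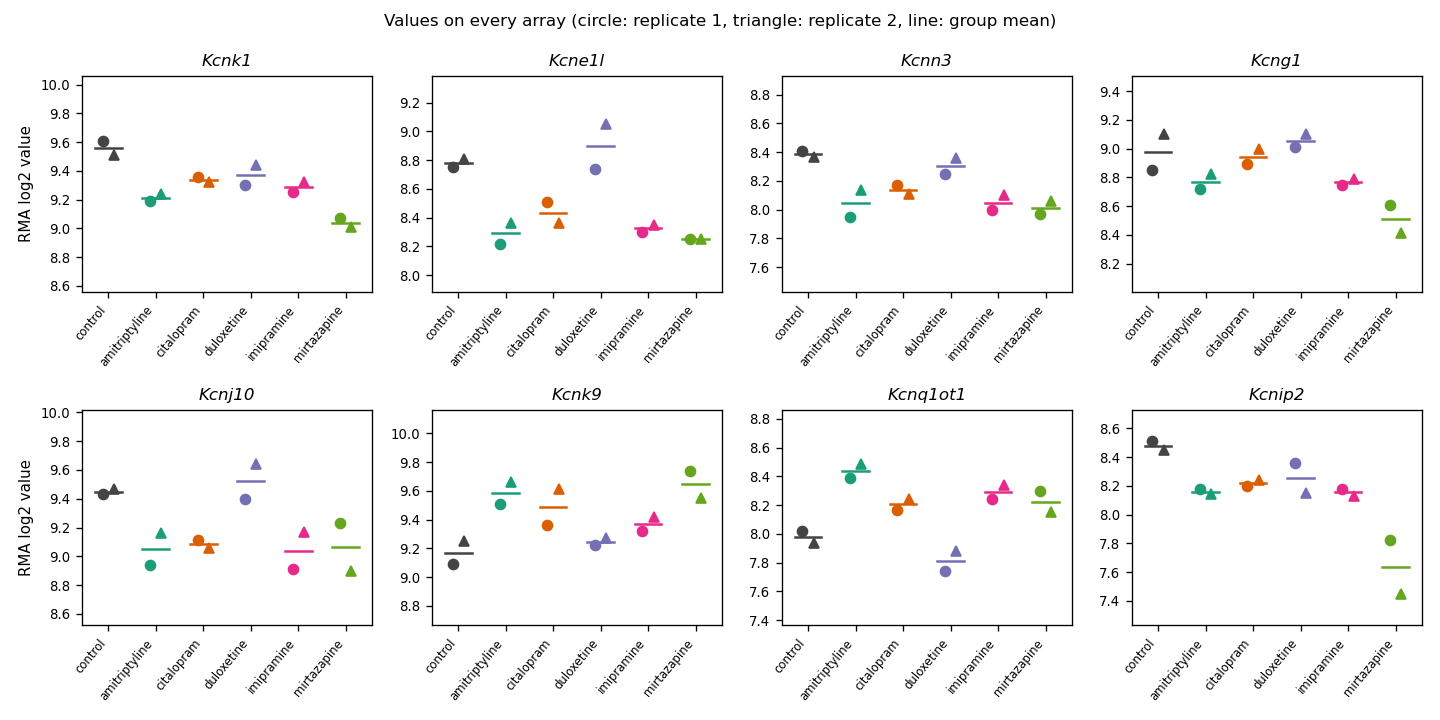
RMA log2 values of 8 genes on every array, by group (circle, replicate 1; triangle, replicate 2; line, group mean); every panel spans 1.5 log2 units but has its own range. Kcnk1 has all 10 drug arrays below both control arrays, and Kcne1l, Kcnn3 and Kcnj10 have the 8 arrays of the drugs other than duloxetine below the 4 control and duloxetine arrays.

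Beta subunits of the KCNE family are single-span proteins that slow or silence voltage-gated pores. Kcne1l, on the X chromosome, encodes one of these. Control arrays read 8.75 and 8.81 and duloxetine arrays 8.74 and 9.05. Mirtazapine gave 8.25 and 8.25, amitriptyline 8.22 and 8.36, imipramine 8.30 and 8.35, and citalopram 8.51 and 8.36. Every array of these 4 drugs lay below the 4 control and duloxetine arrays. The differences from control were −0.53 for mirtazapine (interval −0.78 to −0.28, limma adjusted p = 0.0513), −0.49 for amitriptyline (adjusted p = 0.174), −0.46 for imipramine (adjusted p = 0.3), −0.35 for citalopram (adjusted p = 0.791) and 0.12 for duloxetine (adjusted p = 0.673), none of which passed.

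Without both arrays that stand apart, Kcne1l differed from control by −0.53 on the 1 remaining mirtazapine array. Under amitriptyline, which kept both of its arrays, Kcne1l was then called lower (−0.49, limma adjusted p = 0.0381), where 1.31% of all genes were called. With those arrays left out limma called 0 of the 76 for citalopram and duloxetine (0% of all genes) and for imipramine (0.481%). Between drugs it was called once: duloxetine exceeded mirtazapine by 0.65 (interval 0.39 to 0.90, limma adjusted p = 0.0498), where 0.475% of all genes were called. That difference was 0.80 without duloxetine replicate 1 and 0.49 without replicate 2, with adjusted p = 0.0612 and 0.0686. Its differences from duloxetine under amitriptyline (−0.61, adjusted p = 0.0911), imipramine (0.57 for duloxetine minus imipramine, adjusted p = 0.106) and citalopram (−0.46, adjusted p = 0.386) did not pass. The other 4 KCNE genes, Kcne1, Kcne2, Kcne3 and Kcne4, were dim, and their differences lay between −0.19 and 0.35 over the 5 drugs.

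Calcium-activated channels of small conductance carry the after-hyperpolarisation that follows spikes. Kcnn3 read 8.41 and 8.37 in control, 7.97 and 8.06 under mirtazapine, 7.95 and 8.14 under amitriptyline, 8.0 and 8.1 under imipramine, 8.17 and 8.11 under citalopram, and 8.25 and 8.36 under duloxetine. All 10 drug arrays were below both control arrays, and those of duloxetine were nearest to control. The differences of −0.38 for mirtazapine (limma adjusted p = 0.0855), −0.35 for amitriptyline (adjusted p = 0.297), −0.34 for imipramine (adjusted p = 0.439), −0.25 for citalopram (adjusted p = 0.962) and −0.09 for duloxetine (adjusted p = 0.712) did not pass.

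Kcnn1, of the same group, was at 8.16 and 8.13 in control, 7.84 and 7.81 under mirtazapine and 7.98 and 7.90 under amitriptyline. Its differences of −0.32 (limma adjusted p = 0.0977) and −0.21 (adjusted p = 0.751) did not pass. Its 10 drug arrays too lay below both controls, some of them narrowly. Citalopram read 8.12 and 8.06, and duloxetine 8.11 and 7.96. Kcnn2 ranged only from 7.82 to 8.06 over the 12 arrays, with differences between −0.02 and 0.08. Kcnn4, the intermediate-conductance channel gene best known from blood cells and epithelia, was dim, at 6.31 and 6.21 in control and from 6.35 to 6.85 on the drug arrays, all above control. Thus 3 of 76 genes (3.95%; Kcnk1, Kcnn1 and Kcnn3) had every drug array below both controls, a pattern shown by 3.67% of all genes, and 1 (1.32%) had every drug array above, shown by 1.06%. The comparisons share the same 2 control arrays.

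Inward rectifiers include channels of glia, of the resting potential and of G-protein signalling. Kcnj10 encodes the main rectifier of astrocytes. Its control arrays read 9.43 and 9.47, and its duloxetine arrays 9.40 and 9.64. Under amitriptyline the values were 8.94 and 9.16, under imipramine 8.91 and 9.17, under citalopram 9.11 and 9.06, and under mirtazapine 9.23 and 8.90. These 8 arrays all lay below the 4 control and duloxetine arrays. The differences were −0.40, −0.41, −0.37 and −0.39, with limma adjusted p = 0.561, 0.694, 0.977 and 0.170, and none passed. Under duloxetine the difference was 0.07 (adjusted p = 0.845). Duloxetine minus imipramine was 0.48 (interval 0.16 to 0.80, adjusted p = 0.256).

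Astrocyte markers were lower on the same arrays as Kcnj10. Over the 11 tested, the mean per array relative to control lay between −0.43 and −0.17 on the 8 arrays of amitriptyline, imipramine, citalopram and mirtazapine, and at 0.03 and 0.01 on the duloxetine arrays. Their medians were −0.30, −0.31, −0.15, −0.36 and, under duloxetine, 0.02. Aqp4 (−1.17, limma adjusted p = 0.0100) and Gfap (−0.60, adjusted p = 0.0214), astrocyte water channel and filament genes, fell under mirtazapine, and under the other drugs 0 of the 11 were called. Of the 11, 1 was higher under mirtazapine (S100b, 0.11). The same marker values accompany the lower readings of Kcnk1, Kcne1l and Kcnn3 under those 4 drugs. Under duloxetine, with a marker median of 0.02, Kcnk1 read 9.30 and 9.44 (control 9.61 and 9.51). Kcnn3 read 8.25 and 8.36 there (control 8.41 and 8.37). How these genes relate to the markers was not tested.

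Lists for other cells moved on these arrays as well. The 11 cell cycle genes, which mark dividing cells, had differences below 0 for 11 of 11 under each drug, with medians of −0.64 under amitriptyline, −0.53 under imipramine, −0.61 under citalopram, −0.77 under mirtazapine and −0.18 under duloxetine. Under mirtazapine 8 of the 11 were called lower. Over 10 oligodendrocyte lineage markers the medians were −0.32, −0.36, −0.26 and −0.30 under the first 4 drugs, and 0.31 under duloxetine. The control arrays parted on this list, with means of −0.22 and 0.22 relative to their average. The duloxetine arrays lay at 0.26 and 0.33, and the 8 arrays of the other drugs between −0.48 and −0.29. Mirtazapine differences had a median of −0.26 over 11 markers of radial glia and progenitors and of −0.33 over 7 excitatory neuron markers (6 of 7 below 0). In that comparison 1 gene of each of these 3 lists was called lower. The 12 general neuron markers had a median of −0.10 under mirtazapine (10 of 12 below 0, 0 called), and the 8 inhibitory neuron markers 0.30 (7 of 8 above 0, 0 called). Microglia and endothelial markers had medians of 0.22 and 0.23 there, with 0 called. Endothelial genes were low in level (mean log2 6.12 to 6.99). Their mean relative to control was 0.095 on mirtazapine replicate 1 and 0.275 on replicate 2, the array that stands apart. Microglia means on these arrays were 0.12 and 0.20. Mural and fibroblast markers had a median of 0.15, with 4 above and 4 below 0. Of these 1 was called lower, and the lowest difference was −1.61. Potassium channel genes of neurons and of glia were thus read beside shifts in several marker lists, whose part in any of these results was not tested. In such cultures fewer cells of a type and less RNA per cell cannot be told apart.

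In all, 3 of 76 genes (3.95%; Kcne1l, Kcnj10 and Kcnn3) had the 8 arrays below the 4 control and duloxetine arrays, where 1.51% of all genes did, and 2 (2.63%; Kcnk9 and Kcnq1ot1) had them above, where 1.12% did. In limma's F test over the 5 drugs, 0 of the 76 were called, as were 0.0115% of all genes, and 9 (11.8%) had an unadjusted p under 0.05 against 9.76% of all genes. Kcnq1ot1 (adjusted p = 0.194) and Kcne1l (adjusted p = 0.233) had the lowest values in limma.

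Kcnj16, which encodes a partner of Kcnj10 in glia and epithelia, read 6.16 and 6.65 in control, a wide gap, and 6.84 and 6.98 under duloxetine (difference 0.51, limma adjusted p = 0.492). Its neighbour on chromosome 11, Kcnj2, a strong rectifier gene of the resting potential, was at 8.75 and 8.99 in control. Under mirtazapine its 2 arrays parted, at 9.52 and 8.96 (difference 0.37), the lower being the array that stands apart. With both such arrays left out, the remaining mirtazapine array gave 0.65 (limma adjusted p = 0.0274). Kcnj4, another strong rectifier gene of forebrain neurons, went from 8.18 and 8.25 in control to 8.56 and 8.51 under mirtazapine (0.32, limma adjusted p = 0.142). Kcnj9, next to Kcnj10 on chromosome 1 and part of G-protein-gated channels, stayed between 7.79 and 7.97 on all arrays. Of its G-protein-gated partners, Kcnj6 lay between 6.81 and 7.01. Kcnj3 read 9.51 and 9.58 in control and 9.72 and 9.77 under mirtazapine, where both arrays lay above all 10 others (0.20, limma adjusted p = 0.213), and a second probe set of Kcnj3 pointed the other way (−0.22, adjusted p = 0.272 with every probe set in the fit). Kcnj5, a further partner and a dim probe set, went from 6.13 and 6.14 in control to 6.43 and 6.58 under mirtazapine (0.37, limma adjusted p = 0.214), and read 6.63 on duloxetine replicate 2. Of the ATP-sensitive pore genes, Kcnj11 read 8.01 and 7.74 in control and 7.67 to 7.92 on the drug arrays. Kcnj8 differed between its controls (5.92 and 6.54) by more than any drug mean differed from the control mean. Of 14 inward rectifier genes 0 were called, and 4 had an unadjusted p under 0.05 under mirtazapine (all genes 22.4%), with a median difference of 0.22 (all genes −0.04). The medians were 0.25 for the 4 dim genes and 0.21 for the other 10.

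Voltage-gated channels shape the spike and the interval between spikes, and of their pore genes 0 were called under any drug by limma. Among the Kcna genes, which encode axonal and juxtaparanodal channels, Kcna2 was at 8.42 and 8.58 in control and 8.70 and 8.76 under duloxetine (0.23, limma adjusted p = 0.494). It read 8.50 and 8.26 under mirtazapine. Kcna4, an inactivating channel gene, read 8.19 and 7.97 in control and 7.90 and 7.71 under duloxetine (−0.28, adjusted p = 0.492). A second probe set of Kcna4 gave −0.86 under duloxetine (adjusted p = 0.532) and −1.09 under mirtazapine (adjusted p = 0.232), against −0.10 for the first under mirtazapine, so its probe sets disagree in size and neither passed. Kcna1, Kcna3 and Kcna6 had differences between −0.14 and 0.11. Kcna5, a dim probe set, was at 6.22 and 6.37 in control, 6.6 and 7.0 under mirtazapine and 6.41 and 6.93 under duloxetine.

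The slow delayed rectifier gene Kcnb2 read 9.13 and 9.02 in control and 8.88 and 8.49 under mirtazapine (−0.39, limma adjusted p = 0.144), and lay between 8.93 and 9.14 on the arrays of the other drugs. Kcnc2, for fast-spiking delayed rectifiers, was at 8.26 and 8.45 in control and 8.70 and 8.72 under amitriptyline (0.36), a difference that did not pass. On the arrays that stand apart it read 8.08 and 8.22. The A-type gene Kcnd2, which opposes dendritic excitation, stayed between 10.35 and 10.75, lowest on mirtazapine replicate 2, and Kcnd3 between 8.73 and 8.94. Among the 8 ether-à-go-go genes, Kcnh1 to Kcnh8, all differences lay between −0.20 and 0.28. The largest for amitriptyline was that of Kcnh4 (7.88 and 7.93 in control, 8.20 and 8.10 with the drug, 0.25). The genes of the M current, which restrains repeated firing, stayed near control: Kcnq3 differences ran from −0.22 under imipramine to 0.13 under duloxetine, and those of Kcnq5 from 0.05 to 0.20. Kcnq1, the cardiac and epithelial member, was dim, with 5.93 and 5.95 in control and 6.19 and 6.71 under duloxetine (0.51, limma adjusted p = 0.492), the higher value on the array that stands apart.

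Silent subunits form no channel alone and alter Kcnb pores. Kcng1 read 8.85 and 9.10 in control and 8.61 and 8.41 under mirtazapine, a difference of −0.47 (interval −0.71 to −0.22, limma adjusted p = 0.0701) that did not pass, with both mirtazapine arrays below all 10 others. Duloxetine gave 9.01 and 9.10, amitriptyline 8.72 and 8.82, imipramine 8.75 and 8.79, and citalopram 8.89 and 9.0. Without mirtazapine replicate 2 the difference was −0.37. Kcng2, of the same subfamily but dim, pointed the other way under mirtazapine, from 6.5 and 6.47 to 6.76 and 7.07 (0.43). Kcnv1, which also silences Kcnb channels, read 9.32 and 9.41 in control and 9.24 and 8.98 under mirtazapine (−0.26, limma adjusted p = 0.212). Kcns1 differed between its control arrays (8.05 and 7.56) by more than it did between drugs, with drug arrays from 7.54 to 7.71. Kcnf1 stayed between 7.68 and 8.02, and Kcns2 between 7.69 and 7.92. The sodium-activated channel gene Kcnt1 lay between 8.43 and 8.60. Its paralogue Kcnt2 was at 8.93 and 9.01 on duloxetine replicate 2 and mirtazapine replicate 2 and between 9.32 and 9.58 on the other 10 arrays.

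**Figure D4:**
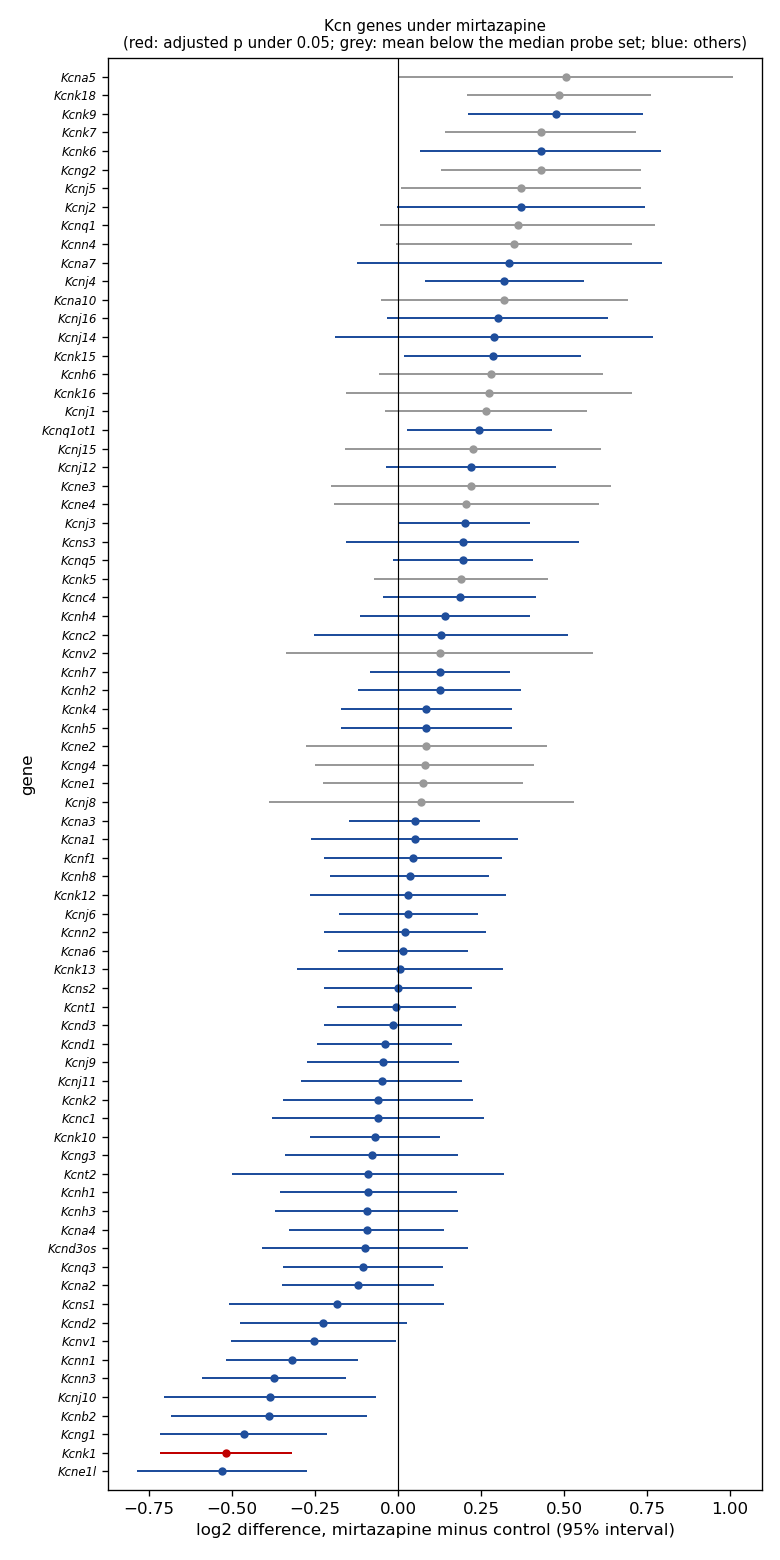
Differences between mirtazapine and control for the 76 potassium channel genes (points, log2 scale) with 95% intervals from limma; red marks an adjusted p under 0.05, grey a mean below the median probe set, blue the others. Kcnk1 (−0.52) is the single red point, Kcne1l (−0.53) lies beside it, and 20 of 20 grey points are above 0.

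Of the noncoding RNAs, Kcnq1ot1, the imprinted antisense transcript that silences neighbouring genes in cis, read 8.02 and 7.94 in control. Amitriptyline gave 8.39 and 8.49, imipramine 8.24 and 8.34, citalopram 8.17 and 8.24, mirtazapine 8.30 and 8.15, and duloxetine 7.74 and 7.88. The 4 other drugs thus lay above all control and duloxetine arrays, and duloxetine lay below control. Differences were 0.46 for amitriptyline (interval 0.24 to 0.68, limma adjusted p = 0.142), 0.31 for imipramine (adjusted p = 0.565), 0.23 for citalopram (adjusted p = 1), 0.25 for mirtazapine (adjusted p = 0.187) and −0.17 for duloxetine (adjusted p = 0.53), and did not pass. Without both arrays that stand apart the amitriptyline difference was called (0.46, limma adjusted p = 0.0376). Amitriptyline exceeded duloxetine by 0.63 (interval 0.41 to 0.85, adjusted p = 0.0602), where 0.0115% of all genes were called. Kcnq1, on the other strand, had differences of −0.02, 0.20, 0.26, 0.36 and 0.51 for amitriptyline, imipramine, citalopram, mirtazapine and duloxetine. Signal over this overlap depends on the strand of the probes, and the sources used here do not give it. Kcnd3os stayed between 6.44 and 6.91.

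Beyond the pore genes, a list of 25 auxiliary and large-conductance channel genes was tested in full. Kcnip2, a calcium-binding partner of the A-type Kcnd channels, fell under mirtazapine and was the only one of the 25 called in any drug-control comparison, where for mirtazapine 1.74% of all genes were called. Its values were 8.51 and 8.45 in control and 7.82 and 7.45 under mirtazapine. The other drugs gave 8.18 and 8.14 (amitriptyline), 8.18 and 8.13 (imipramine), 8.20 and 8.24 (citalopram) and 8.36 and 8.15 (duloxetine), so all 10 drug arrays lay below control. The fall was 0.85 log2 units (difference −0.85 ± 0.12 SE, interval −1.12 to −0.57), a level 1.8-fold lower (limma adjusted p = 0.0182). It ended without control replicate 1 (−0.82, adjusted p = 0.152), without control replicate 2 (−0.88, adjusted p = 0.0584) and without mirtazapine replicate 2 (−0.66, adjusted p = 0.0921).

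The other partners of Kcnd channels had lower readings under mirtazapine too, without passing. Kcnip3 was at 9.52 and 9.65 in control and 9.16 and 9.17 under mirtazapine (−0.42, limma adjusted p = 0.0843), with like values under amitriptyline (9.19 and 9.21), imipramine (9.12 and 9.25) and citalopram (9.29 and 9.12) and higher ones under duloxetine (9.68 and 9.91). Dpp10, a membrane partner, read 9.03 and 9.07 in control and 8.70 and 7.69 under mirtazapine (−0.86, adjusted p = 0.136), the lower value on the array that stands apart. Kcnab1, a cytosolic beta subunit of Kcna channels, was at 7.62 and 7.91 in control, 7.18 and 7.25 under mirtazapine (−0.55, adjusted p = 0.0563) and 7.73 to 8.0 under the other drugs. Over the 25 genes the median difference was −0.14 under mirtazapine (16 negative, 9 positive), against −0.04 for all genes, and between −0.04 and 0.02 under the other drugs. The large-conductance pore gene Kcnma1 had differences of 0.10 under amitriptyline and 0.04 under mirtazapine. Of 3 tested HCN channel genes, which carry a related cation current, 0 were called, and differences lay between −0.40 (Hcn4, mirtazapine) and 0.18. Hcn4 read 9.14 and 9.29 in control and 9.20 and 8.44 under mirtazapine, the lower value on the array that stands apart.

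The last question was whether drugs differed from each other, in 10 pairs. The pair of tricyclics, amitriptyline and imipramine, both at 5 µM, was the one comparison at a matched dose. Of 76 genes 0 were called by limma and 0 had an unadjusted p under 0.05 (all genes 0% and 1.21%). Differences ran from −0.22 to 0.23, and over all 76 genes the interval bounds reached from −0.63 to 0.67, which leaves differences inside those bounds undecided. For Kcnk1 the difference was −0.07 (interval −0.27 to 0.13), for Kcne1l −0.04 (−0.29 to 0.22), for Kcnn3 −0.01 (−0.22 to 0.21), for Kcnj10 0.01 (−0.31 to 0.33) and for Kcnk9 0.22 (−0.05 to 0.48).

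Other pairs differ in dose, and their values stand side by side only as those of the drugs as given. Pairs with duloxetine at 0.1 µM had 11 potassium channel genes at an unadjusted p under 0.05 against amitriptyline (all genes 11.8%), 12 against imipramine (12.7%), 6 against citalopram (6.74%) and 13 against mirtazapine (11.4%), which is 14.5%, 15.8%, 7.89% and 17.1% of the 76. Adjusted, 0 were called against imipramine (all genes 0.12%) and 0 against citalopram (0.0115%). Kcng1 was higher under duloxetine than under mirtazapine by 0.55 (interval 0.30 to 0.79, limma adjusted p = 0.0868), without passing. Mirtazapine at 50 µM had 8 such genes (10.5%) against amitriptyline (all genes 10.1%), 7 (9.21%) against citalopram (10.2%) and 11 (14.5%) against imipramine (17.7%), with 0 called in each and 0% of all genes. Citalopram had 1 gene (1.32%) at an unadjusted p under 0.05 against amitriptyline (1.31%) and 1 against imipramine (1.08%), and 0 called.

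Counted by arrays alone, 16 genes had both amitriptyline arrays above both controls and 13 below, where all genes gave 14.1% and 24.2%. The counts were 27 and 8 for citalopram (17% and 22.1%), 19 and 10 for duloxetine (15.5% and 18.3%), 12 and 18 for imipramine (14.3% and 19.1%) and 25 and 10 for mirtazapine (22.6% and 30.6%). As shares of 76, the counts above were 21.1%, 35.5%, 25%, 15.8% and 32.9%, and those below 17.1%, 10.5%, 13.2%, 23.7% and 13.2%. For every drug but imipramine the potassium channel genes lay above both controls more often, and below both less often, than all genes did, as a description with no test of the difference. Of the 20 dim genes, 20 had a positive difference under mirtazapine and 19 under duloxetine, against 29 and 31 of the 56 brighter ones.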

How the data were processed

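Transcript levels were read from 12 Affymetrix arrays, 2 for each of 6 groups, which were assigned by the labels' titles. The deposited values are log2 signals rounded to 2 decimals for 41345 probe sets, made by the authors with RMA in Affymetrix Expression Console, per the submitters' processing notes; for versions or a build, the sources used here give nothing. Arrays carry no counts, so their number limits the precision. The platform annotation gave 1 symbol to 23521 probe sets, several to 1814 and none to 16010; 3 probe sets with several symbols that include a Kcn gene were left out, and 4 genes had a second probe set. By gene number, all 77 genes were found in a GRCm38 gene table.

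All 12 arrays entered 1 limma 3.58.1 model (R 4.3.3; lmFit and eBayes, 6 residual and 3.86 prior degrees of freedom). P-values were two-sided, adjusted by Benjamini-Hochberg over 17467 genes and called under 0.05, with 95% intervals. The fit was tested on simulated data. Promoters came from RefSeq, 1 start per gene, the most upstream one. Alternatives were other filters, every probe set, trend and robust, array weights, repeated quantile normalization, a replicate block, each array left out, both arrays that stand apart left out, and only the arrays compared. Where an array was left out, its group's lone array was assumed to vary like the rest. Genes and lists were chosen with earlier results of these data known. Named genes are those called, the 6 of lowest p per drug and the lowest p of each subfamily; other genes were named after their values were seen. Figures used matplotlib 3.10.9.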

Additional observations from a re-analysis of the deposited data

Results flagged for a closer look

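Kcne1l, the KCNE beta subunit gene, was the one potassium channel gene whose drug effects differed between 2 drugs by limma's test of that difference: under duloxetine it was 0.645 log2 units higher than under mirtazapine (interval 0.39 to 0.90, limma adjusted p = 0.0498). It lay above control by 0.12 under duloxetine and below it by 0.53 under mirtazapine. Both duloxetine arrays (8.74 and 9.05) were above both mirtazapine arrays (8.25 and 8.25), and the higher one is an array that stands apart. The call was lost in 19 of 21 alternatives, with adjusted p from 0.0297 to 0.999 over all of them. No sample of a single group was screened for outliers, since groups of 2 are too small.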

How the results depend on the processing

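Over 32 differences of named genes and 668 combinations with an alternative, 612 kept their direction and side of the threshold, 23 came to pass, 33 no longer passed and 0 reversed. The count of potassium channel genes called rested on few arrays. For mirtazapine it was 1, and became 3 with the 50th percentile filter, 3 with trend and robust, 3 without both arrays that stand apart, 0 with array weights and 0 with only the arrays compared. Leaving out 1 array gave 0 to 8, with 8 (10.5% of 76, all genes 7.6%) without either duloxetine array, 7 (9.21%, all genes 8.3%) without mirtazapine replicate 1, and 0 without either array of amitriptyline, citalopram or control or without mirtazapine replicate 2. For duloxetine the range was 0 to 3, the 3 (3.95%, all genes 11.7%; Kcnk6 and the dim Kcnk18 and Kcnq1) without replicate 1, which leaves the array that stands apart. For amitriptyline the count of 0 became 2 with array weights and 2 without both arrays that stand apart. For the mean of the drugs it became 1 and 2 under those settings. Leaving out 1 array kept 0 for amitriptyline, citalopram, imipramine, the mean of the drugs and the F test. Over the 10 drug pairs the count of 1 became 0 with no filter, every probe set, array weights, the replicate block or only the arrays compared, 2 with the 50th percentile filter and 3 with trend and robust; leaving out 1 array gave 0 to 14, with 14 without duloxetine replicate 1: 8 against imipramine (10.5%, all genes 13.4%), 5 against amitriptyline (6.58%, all genes 7.57%) and 1 against citalopram (1.32%, all genes 2.53%). With the replicate block, Kcnk1 stayed called under mirtazapine (−0.52, limma adjusted p = 0.0397), while Kcne1l between duloxetine and mirtazapine did not (0.65, adjusted p = 0.0735). The samples share only a replicate number: differences between replicates 1 and 2 correlated across genes at −0.438 to 0.712 between groups. Repeated quantile normalization ended the Kcnk1 call (−0.40, adjusted p = 0.0854), and array weights did as well (adjusted p = 0.057). Over its alternatives the Kcnk1 adjusted p ran from 0.0103 to 0.182. The cause of these shifts was not tested. With 2 arrays per group and a median unadjusted interval of 0.27 on either side, differences under about that size could not be told from 0. After adjustment larger ones did not pass either, such as Kcne1l under amitriptyline (−0.49, limma adjusted p = 0.174).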
